A study of Homo sapiens with 27 samples.

Results

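Integrins are the receptors by which cells hold on to the extracellular matrix, and laminins are a main family of matrix proteins that they hold on to. The 37 genes described here are the integrin subunits and laminin chains of a human RNA-seq count table of 21487 genes. They were chosen by name: 17 integrin alpha subunits, 8 integrin beta subunits, 5 laminin alpha chains, 4 laminin beta chains and 3 laminin gamma chains. The name rule found 40 rows, and 3 of them (ITGB1BP1, ITGB1BP2 and ITGB3BP, which encode binding partners of integrin beta subunits) were not counted as members. RNA came from Panc1, an established human pancreatic ductal carcinoma cell line, and from a pair of Panc1 lines in which ARNT was knocked out with CRISPR-Cas9, called Clone A and Clone B. ARNT encodes the constant partner of the hypoxia-inducible factors, the transcription factors that act when oxygen is low.

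Each of the 3 lines (parental, Clone A, Clone B) was kept for 48 h in 3 conditions: 20% oxygen in regular medium (normoxia), 1% oxygen in regular medium (hypoxia), and 1% oxygen in tumor interstitial fluid medium (TIFM), a medium made to resemble the fluid inside a tumor. TIFM was used at 1% oxygen only, so its effect is read against hypoxia in regular medium. There were 3 libraries per group and 27 in all. Each knockout genotype is a single clonal line, and the parental cells are not described as a clone. What ARNT loss and what cloning brought to a clone therefore cannot be told apart. The labels do not say that replicates were separate cultures, so p-values measure the spread between these libraries, which may be technical.

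Laminins are secreted as trimers of 1 alpha, 1 beta and 1 gamma chain and form the sheet-like network of basement membranes, on which epithelial cells such as those of the pancreatic duct rest. Integrins are pairs of 1 alpha and 1 beta subunit that span the membrane. The alpha6-beta4 pair anchors epithelial cells in hemidesmosomes by binding a laminin that holds LAMA3 and LAMB3, and this laminin and its receptor are known for their part in the attachment and invasion of carcinoma cells.

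The upstream sequences of 3 members are shown because the results below turn on them: LAMA3 and LAMB3, chains of the same trimer that were lower in both clones, and ITGB8, which was higher in hypoxia in every line. Each is the 250 bases before a RefSeq transcription start (GRCh38.p14, 5′ to 3′ on the strand of the gene), at chr18:23872770-23873019 on the plus strand for LAMA3, chr1:209651375-209651624 on the minus strand for LAMB3 and chr7:20330650-20330899 on the plus strand for ITGB8. The LAMA3 window lies inside the annotated gene, before a start used by a shorter transcript. The LAMB3 window also lies inside its annotated gene, and a further LAMB3 window at chr1:209652376-209652675 held CAGGTG but no TGAGTCA. The ITGB8 window overlaps the annotated gene, which starts at position 20330702, and the GCGTG nearer the shown start lies within that gene. Capitals mark the AP-1 site TGAGTCA in LAMA3 and LAMB3. They also mark the E-box CAGGTG in LAMA3, which overlaps the AP-1 site nearer the start. In ITGB8 they mark GCGTG, a core recognised by hypoxia-inducible factors with ARNT. Motifs were read on both strands, so a match on the opposite strand appears as its reverse complement.
LAMA3: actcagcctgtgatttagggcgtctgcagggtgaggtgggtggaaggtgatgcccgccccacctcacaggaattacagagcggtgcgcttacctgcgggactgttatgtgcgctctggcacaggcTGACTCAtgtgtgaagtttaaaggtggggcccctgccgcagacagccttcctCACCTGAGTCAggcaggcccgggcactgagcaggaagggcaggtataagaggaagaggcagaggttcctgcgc
LAMB3: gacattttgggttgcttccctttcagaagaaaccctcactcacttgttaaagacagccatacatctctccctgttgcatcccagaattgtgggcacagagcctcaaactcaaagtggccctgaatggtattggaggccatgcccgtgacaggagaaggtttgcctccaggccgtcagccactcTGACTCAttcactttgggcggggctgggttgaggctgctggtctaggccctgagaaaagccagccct
ITGB8: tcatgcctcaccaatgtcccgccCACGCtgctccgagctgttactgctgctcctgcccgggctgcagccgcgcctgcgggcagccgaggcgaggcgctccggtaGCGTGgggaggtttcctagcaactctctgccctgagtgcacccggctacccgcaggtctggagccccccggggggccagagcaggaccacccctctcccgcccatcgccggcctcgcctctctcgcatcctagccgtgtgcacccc

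TGAGTCA occurred in LAMA3 at -125 and -69 from the start and in LAMB3 at -67, and GCGTG occurred in ITGB8 at -227 and -146. Over 35116 RefSeq promoter windows of 300 bases (250 before and 50 after the start), 4.95% held TGAGTCA, 20.6% held CAGGTG, 36.5% held GCGTG and 21.4% held ACGTG, the other form of the hypoxia-response core. RefSeq windows were matched for 26 of the 37 members (33 windows, since some genes have several starts). Among these 33 windows, 3 held TGAGTCA (9.09%), 8 held CAGGTG (24.2%), 12 held GCGTG (36.4%) and 3 held ACGTG (9.09%). The matches describe letters in a window and do not show that a factor binds there. ITGA3, ITGA7, ITGA9, ITGAL, ITGAX, ITGB2, ITGB3, ITGB4, LAMA1 and LAMC3 had no entry.

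The libraries held 26057022 to 38341713 counts each (median 31727174). ARNT transcripts were present in all groups, at 71.2 ± 3.62, 71.4 ± 3.45 and 63.9 ± 4.51 CPM (counts scaled to a common library size; mean ± SD, n = 3) in parental normoxia, hypoxia and TIFM, 75.5 ± 2.19, 68.5 ± 0.331 and 55.3 ± 4.26 in Clone A, and 63.9 ± 1.44, 64.8 ± 3.00 and 48.8 ± 3.85 in Clone B. A small deletion or insertion need not lower the transcript, so this level does not check the knockout. The typical spread between replicates (edgeR's biological coefficient of variation) was 29.2% in Clone A in TIFM, 17.3% in Clone B in TIFM, 17.3% in the parental line in TIFM and 4.54% to 12.7% in the other groups. All 9 marker genes listed for a ductal carcinoma line were counted, with sums of 2997 to 13742 CPM per library, mostly KRT8, KRT18, KRT19 and VIM. Group means of TSPAN8, one of the 9, were 3.30 to 5.77 CPM in the parental line and 0.0377 to 0.188 in the clones. Those of EPCAM were 18.1 to 37.3 CPM over all groups. KRT7 had group means of 2.51 to 9.30 CPM, MUC1 of 0.505 to 18.1 and S100A6 of 267 to 633. Of the 11 leukocyte markers MS4A1 and TYROBP were at 0 in every library, and the list's sum of 80.4 to 318 CPM per library was mostly CD68. The platelet gene PPBP was at 0 in every library. Fibroblast markers summed to 877 to 897 CPM in Clone B in normoxia, nearly all of it COL1A1, and to 45.2 to 55.5 CPM in parental normoxia, and their part in the results was not tested.

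A low-count filter kept 33 of the 37 members for testing, 22 integrin subunits and 11 laminin chains. ITGAL, ITGAX, ITGB3 and LAMB4 were not tested: none exceeded 0.403 CPM in any library. Differences are log2 ratios from edgeR's quasi-likelihood test fitted to all 27 libraries, ± the standard error, and adjusted p is the Benjamini-Hochberg value over all 13943 tested genes. A gene is said to have risen, fallen or changed, or to be higher or lower in a clone, where adjusted p was below 0.05. A call is said to be lost without a number of libraries where leaving out each of them, one at a time, took adjusted p above 0.05. In bulk RNA, fewer cells that express a gene and less RNA per cell cannot be told apart. Whether reads were counted by strand is not given in the sources used here, so reads of overlapping genes cannot be told apart: 42.1% of ITGB7 exon bases and 20.6% of ITGB6 exon bases overlap exons of another gene, and among members above 5 CPM the overlap was at most 7.59% (ITGAE).

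Per kb of a gene's merged annotated exons, a length that can exceed any single transcript, Panc1 cells expressed a small set of these genes. In parental normoxia ITGB1, the partner of most alpha subunits, stood at 295 ± 11.8 CPM per kb (SD, n = 3), followed by ITGAV (95.8 ± 12), ITGA3 (55.3 ± 4.57), ITGB5 (49.8 ± 6.03), ITGA6 (35.2 ± 0.884), LAMC1 (31.3 ± 1.59), ITGA2 (30.4 ± 3.14) and LAMB1 (23.4 ± 1.62 CPM per kb). ITGA5, the fibronectin-binding alpha subunit, was at 8.63 ± 1.06 CPM per kb. The chains LAMA5 (6.20 ± 0.525) and LAMB2 (5.70 ± 0.337) and the subunits ITGB4 (3.74 ± 0.13) and ITGAE (2.97 ± 0.241 CPM per kb) came next. LAMC3, LAMA4, LAMA3 and ITGB8 were near 1 CPM per kb (1.47 ± 0.174, 1.27 ± 0.172, 0.909 ± 0.080 and 0.868 ± 0.138), and LAMB3 was at 0.0894 CPM per kb. In this order the neighbours ITGA3 and ITGB5, LAMC1 and ITGA2, LAMA5 and LAMB2, LAMC3 and LAMA4, and LAMA3 and ITGB8 differed by less than the sum of their SDs.

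The mix of laminin chains differed between the lines. LAMB1 made up 80.1% of the beta-chain level per kb in parental normoxia, 42.4% in Clone A and 66.8% in Clone B, while LAMB2 made up 19.5%, 57.5% and 32.9%. In TIFM, the LAMB2 share was 17.8% in the parental line, 74.7% in Clone A and 30.6% in Clone B. Among alpha chains, LAMA3 held 10.7% in parental normoxia, 0.354% in Clone A and 0.712% in Clone B, while LAMA5 held 72.8%, 91.1% and 91.7%. Among integrin alpha subunits, ITGAV led in parental normoxia (41.6%), whereas ITGA3, ITGA2 and ITGAV shared the lead in Clone A (27.2%, 26.7% and 26.7%). These shares are ratios of group means, given without a test.

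**Figure D1:**
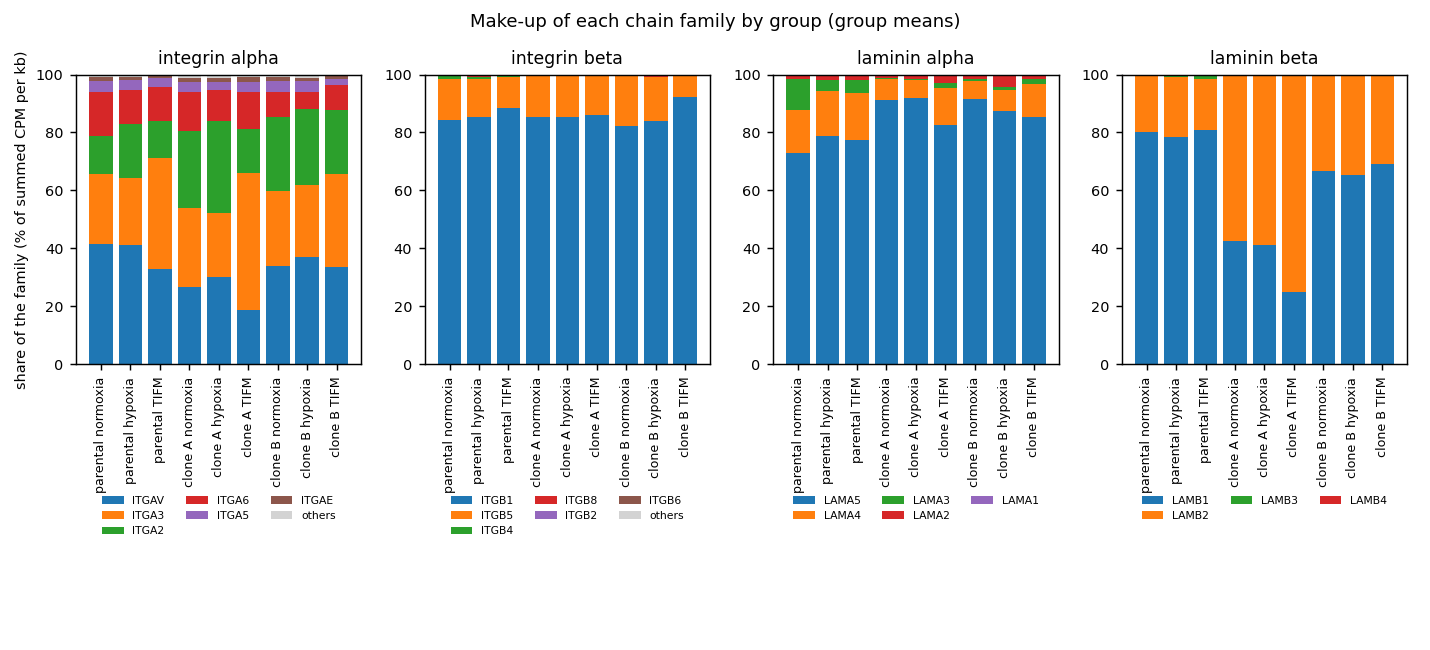
Share of each family's summed level (group means of CPM per kb of merged exons, percent) held by its members in the 9 groups. Integrin alpha and beta subunits and laminin alpha and beta chains have a panel each, and bars start at 0 and reach 100. LAMB1 gives way to LAMB2 in Clone A, where LAMB2 holds 57.5% in normoxia and 74.7% in TIFM, and the LAMA3 band of the parental line shrinks in both clones.

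The counts of members called are read against the share of all tested genes called in the same comparison. Hypoxia changed 11 of the 33 tested members in the parental line (8 up, 3 down), where 30.2% of all tested genes changed, 2 in Clone A (both up), where 22.2% did, and 4 in Clone B (2 up, 2 down), where 9.30% did. TIFM changed 7 members in the parental line (4 up, 3 down) with 42.2% of all genes, 19 in Clone A (6 up, 13 down) with 67.2%, and 19 in Clone B (5 up, 14 down) with 53.7%. The members' counts in these treatment comparisons are therefore close to or below what the whole table shows, and only the single genes are described further.

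Between genotypes the members that differed were lower in a clone more often than higher. In Clone A 15 of the 33 tested members differed from the parental line in normoxia (12 lower), 18 in hypoxia (13 lower) and 21 in TIFM (17 lower). Of all tested genes 31.6%, 41.4% and 61.7% differed, and 15.8%, 20.9% and 30.7% were lower. In Clone B 17 members differed in normoxia (11 lower), 18 in hypoxia (12 lower) and 17 in TIFM (14 lower). Of all tested genes 26.5%, 35.9% and 47.5% differed, and 13.3%, 19.0% and 25.4% were lower. Between Clone B and Clone A 10, 9 and 16 members differed in normoxia, hypoxia and TIFM, against 21.5%, 25.1% and 56.1% of all genes. The median log2 difference over the tested members in normoxia was -0.40 in Clone A and -0.24 in Clone B, against 0.04 and 0.01 over all tested genes. Both clones are compared with the same parental libraries, so their values are set side by side and are not independent of each other.

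In each of the 6 comparisons of a clone with the parental line 8 of the 11 tested laminin chains were lower, with a median log2 difference of -1.97, -2.17 and -2.12 in Clone A in normoxia, hypoxia and TIFM, and -1.09, -1.33 and -1.99 in Clone B. Among the 22 tested integrin subunits 4, 5 and 9 were lower in Clone A and 3, 4 and 6 in Clone B, and the medians were 0.05, -0.02, -0.52, 0.13, 0.12 and -0.30 in the same order. LAMB3 and LAMA1 reached the minimum of the filter (0.315 CPM) in all 3 libraries of a group only in the parental line. Among the 9 chains that reached it in both genotypes, 7, 6 and 7 were lower in Clone A and 7, 6 and 7 in Clone B, in normoxia, hypoxia and TIFM respectively. When single libraries were left out, the count of lower laminin chains in Clone B in normoxia was 5 to 6 in place of 8, and it was 7 to 8 in every other comparison. The members lower in both clones in all 3 conditions numbered 8, among them LAMA3, LAMA4, LAMA5, LAMB1, LAMB3, ITGB4 and ITGA7. That is 24.2% of the 33 tested members, and 746 of the 13943 tested genes (5.35%) met the same condition. In normoxia 10 members were lower in both clones and 2, ITGA1 and ITGA2, were higher in both, and over all tested genes 1216 were lower in both and 984 higher in both.

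**Figure D2:**
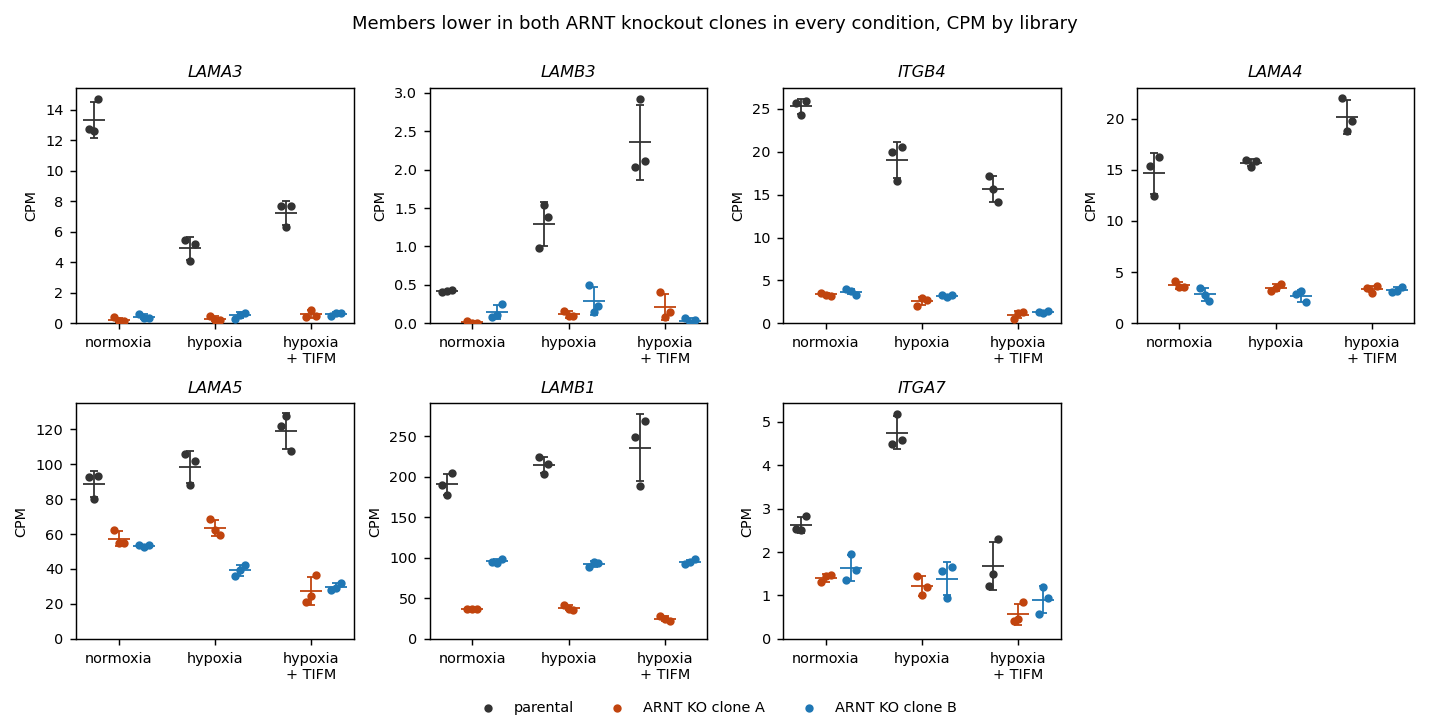
Level (TMM-scaled CPM, linear axes from 0) of LAMA3, LAMB3, ITGB4, LAMA4, LAMA5, LAMB1 and ITGA7, which were lower than the parental line in both clones in all 3 conditions; each point is a library, and horizontal lines with whiskers give the group mean ± SD (n = 3 libraries). In each panel every clone library lies below every parental library of the same condition. The gap is narrow for ITGA7 in TIFM, where the highest clone library was at 1.19 CPM and the lowest parental one at 1.23.

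LAMA3 encodes the alpha3 chain of epithelial laminins (chr18:23689443-23956222, plus strand, GRCh38). In the parental line it stood at 12.7, 12.6 and 14.7 CPM in the 3 normoxic libraries, at 5.45, 4.05 and 5.2 in hypoxia and at 7.66, 6.30 and 7.71 in TIFM. In Clone A the values were 0.390, 0.128 and 0.169 CPM in normoxia, 0.483, 0.189 and 0.238 in hypoxia and 0.435, 0.875 and 0.494 in TIFM. In Clone B they were 0.620, 0.324 and 0.328 CPM, then 0.294, 0.565 and 0.690, then 0.476, 0.696 and 0.679. Every clone library was thus below 1 CPM and every parental library above 4. The log2 difference from the parental line was -5.85 ± 0.34 (adjusted p = 3.26e-13), -4.0 ± 0.33 and -3.59 ± 0.31 in Clone A in normoxia, hypoxia and TIFM. In Clone B it was -4.97 ± 0.31 (adjusted p = 1.47e-12), -3.23 ± 0.30 and -3.55 ± 0.30. Hypoxia lowered LAMA3 in the parental line by 1.44 on the log2 scale (-1.44 ± 0.24, adjusted p = 5.33e-05), and the parental groups did not overlap. At the low level of the clones the hypoxia difference was 0.41 ± 0.47 (adjusted p = 0.573) in Clone A and 0.29 ± 0.37 (adjusted p = 0.684) in Clone B, with overlapping libraries.

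Genes near LAMA3 were lower too. Of 13 tested genes within 1 Mb of LAMA3, 8 were lower in Clone A in normoxia and 10 in Clone B, none was higher in either, and the medians were -0.83 and -1.20 on the log2 scale (ranges -3.77 to -0.10 and -4.63 to -0.57). Over all 201 tested genes of chromosome 18 the medians were -0.06 and -0.11, with 20.9% and 26.9% lower. In hypoxia and TIFM 10 and 7 of these neighbours were lower in Clone A and 10 and 10 in Clone B, and none was higher. Of the 59 tested genes within 1 Mb of ITGB4, 5 were lower and 12 higher in Clone A in normoxia, and 3 were lower and 5 higher in Clone B. Copy number was not measured, and its part in the LAMA3 difference was not tested.

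LAMB3 encodes a beta chain that joins LAMA3 in a trimer (chr1:209614870-209652466, minus strand), and it was low throughout. The parental line held 0.403, 0.422 and 0.432 CPM in normoxia, 0.979, 1.53 and 1.38 in hypoxia and 2.04, 2.92 and 2.11 in TIFM. Clone A held 0.0325, 0 and 0 CPM, then 0.161, 0.0946 and 0.0893, then 0.401, 0.0833 and 0.148. Clone B held 0.0845, 0.108 and 0.246 CPM, then 0.500, 0.149 and 0.221, then 0.0635, 0 and 0.0378. No clone library reached the lowest parental library of its condition. Over the group, Clone A in normoxia had 1 LAMB3 count against 42 in the parental line, a ratio of 40.8 after scaling (95% interval 6.93 to 1649, counting error only). Clone B in TIFM had 3 counts against 207, a ratio of 68.7 (23.2 to 336). The log2 difference in hypoxia was -3.46 ± 0.51 for Clone A and -2.15 ± 0.44 for Clone B. In Clone B in normoxia the difference was -1.49 ± 0.53 (adjusted p = 0.0382, and up to 0.152 without 5 of the 6 libraries). Hypoxia raised LAMB3 in the parental line (1.62 ± 0.42, adjusted p = 0.00503). In Clone A it had 11 counts in hypoxia against 1 in normoxia, a ratio of 11.1 (1.62 to 478), and this call was lost without 5 of the 6 libraries (adjusted p up to 0.137).

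LAMB1, the beta chain of most laminins (chr7:107923799-108003255, minus strand), stood at 190, 178 and 204 CPM in parental normoxia, 224, 204 and 215 in hypoxia and 249, 189 and 269 in TIFM. Clone A held 36.9, 36.6 and 36.4 CPM, then 42, 37.2 and 36.1, then 28.3, 24 and 22.3. Clone B held 94.4, 93.5 and 98.9 CPM, then 88.1, 94.7 and 93.8, then 92.9, 94.6 and 98. The 3 lines formed separate tiers in every condition. The normoxic log2 difference was -2.38 ± 0.11 for Clone A (adjusted p = 6.99e-15) and -1.0 ± 0.11 for Clone B (adjusted p = 4.96e-08). Clone B exceeded Clone A by 1.38 ± 0.11 (adjusted p = 4.16e-10). LAMB1 fell in TIFM in Clone A (-0.63 ± 0.11, adjusted p = 1.87e-05), and this response differed from that of the parental line (-0.76 ± 0.15, adjusted p = 0.000329). Its relative LAMB2 (the beta2 chain) was at 36.5 to 40.6 CPM in parental normoxia, 40.7 to 44.0 in Clone A and 38.1 to 41.6 in Clone B, and no difference between these groups passed the threshold. LAMB2 rose in TIFM in Clone A (0.46 ± 0.14, adjusted p = 0.00449), though its lowest TIFM library (44.7 CPM) lay within the range of hypoxia and the call was lost without Clone A TIFM replicate 3 (adjusted p = 0.118).

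LAMA4 and LAMA5 encode alpha chains that pair with LAMB1 or LAMB2 and LAMC1. LAMA4 (chr6:112108760-112254939, minus strand), found mostly in mesenchymal and vascular basement membranes, was at 15.3, 12.4 and 16.2 CPM in parental normoxia. It was at 4.13, 3.50 and 3.59 CPM in Clone A and at 3.49, 2.75 and 2.21 CPM in Clone B. In hypoxia and TIFM the parental libraries held 15.3 to 22 CPM and no clone library exceeded 3.87. The normoxic differences were -1.97 ± 0.16 (adjusted p = 3.84e-10) in Clone A and -2.38 ± 0.17 (adjusted p = 1.85e-11) in Clone B, and the clones did not differ from each other at the threshold (-0.41 ± 0.17, adjusted p = 0.0935). LAMA5 (chr20:62307955-62367312, minus strand), the main alpha chain of mature epithelial basement membranes, was at 92.5, 80.0 and 93.5 CPM in parental normoxia and at 122, 128 and 108 in TIFM. Clone A held 62.1, 55.0 and 55.1 CPM in normoxia and 21.1, 24.8 and 36.3 in TIFM. Clone B held 53.5, 52.5 and 53.5 CPM in normoxia and 28.2, 29.3 and 32.1 in TIFM. LAMA5 was thus modestly lower in normoxia (-0.63 ± 0.13 and -0.74 ± 0.13) and more so in TIFM (-2.12 ± 0.14 and -1.99 ± 0.14). The TIFM response of the clones differed from the parental one by -1.49 ± 0.19 for Clone A (adjusted p = 1.8e-06) and -0.67 ± 0.19 for Clone B (adjusted p = 0.0245, and up to 0.0805 without 5 of the 12 libraries).

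LAMC1, the gamma chain of most laminins (chr1:183023460-183145592, plus strand), was at 251 to 277 CPM in parental normoxia, 181 to 208 in Clone A and 218 to 230 in Clone B. It was lower in Clone A in all 3 conditions (-0.46 ± 0.09, -0.68 ± 0.09 and -0.54 ± 0.09). In Clone B it was lower in hypoxia (-0.48 ± 0.09, adjusted p = 0.000142), and in normoxia by a call (-0.24 ± 0.09, adjusted p = 0.0482) that was lost without each of the 6 libraries (adjusted p up to 0.169). LAMC1 rose with hypoxia in the parental line (0.36 ± 0.09, adjusted p = 0.00402). LAMC3, a gamma chain of few tissues, went the other way in Clone A: 20.3, 18.1 and 19.4 CPM in normoxia against 11.3, 12.5 and 9.82 in the parental line and 8.98, 8.86 and 8.17 in Clone B. It was higher in Clone A than in the parental line (0.78 ± 0.16, adjusted p = 0.000472) and lower in Clone B than in Clone A (-1.15 ± 0.16, adjusted p = 7.24e-06). LAMA2 was below 2.5 CPM in every library and lower in both clones in normoxia (-1.33 ± 0.40 and -1.15 ± 0.39, lost without Clone A replicate 3 or parental replicate 1, with adjusted p up to 0.0909, and without 4 of the 6 libraries, with adjusted p up to 0.149). In TIFM it was lower in Clone B by -3.09 ± 0.46 (adjusted p = 4.81e-06). LAMA1 did not exceed 0.675 CPM. It rose with hypoxia in the parental line (1.78 ± 0.58, adjusted p = 0.0215), a call lost without parental hypoxia replicate 3 or parental normoxia replicate 1 or 2 (adjusted p up to 0.0935).

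**Figure D3:**
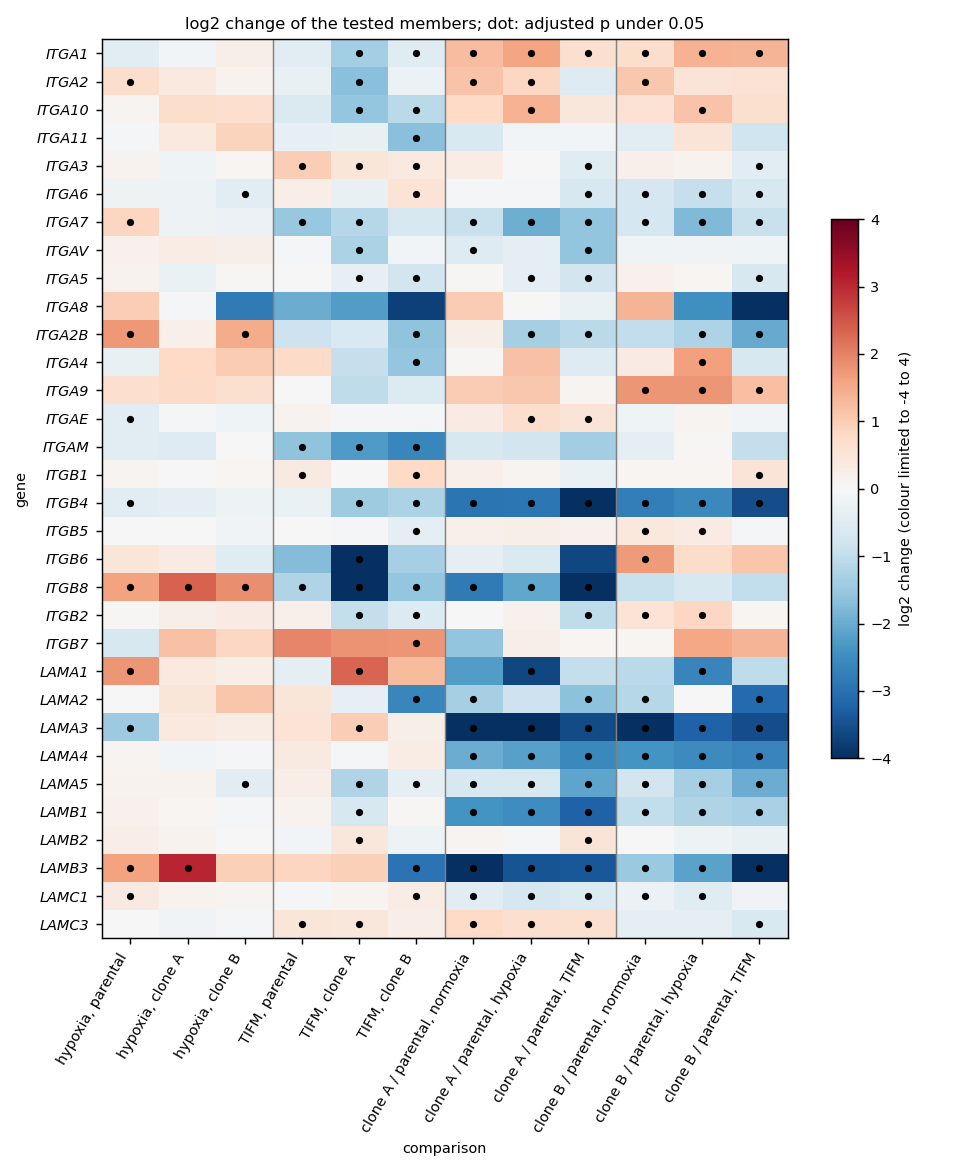
Log2 difference (colour, blue lower and red higher, limited to -4 and 4) of the tested members described here (rows) for hypoxia, TIFM and each clone against the parental line (columns); a dot marks adjusted p below 0.05. The laminin rows are mostly blue in the clone against parental columns, and several integrin rows are blue in the TIFM columns of the clones. ITGA8 and ITGB6 have a group with no count, so their colours there depend on the small count added before taking logs.

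Among receptors, ITGB4 was far lower in both clones in every condition. ITGB4 (chr17:75721328-75757818, plus strand) encodes the beta4 subunit, which pairs only with ITGA6. Parental libraries held 25.7, 24.3 and 25.9 CPM in normoxia, 20.0, 16.6 and 20.5 in hypoxia and 17.2, 15.7 and 14.2 in TIFM. Clone A held 3.58, 3.30 and 3.19 CPM, then 2.03, 2.97 and 2.74, then 0.535, 1.17 and 1.28. Clone B held 3.97, 3.78 and 3.33 CPM, then 3.27, 3.09 and 3.25, then 1.37, 1.19 and 1.43. The clones overlapped each other in normoxia and TIFM, and every clone library was below 4 CPM. The log2 difference was -2.91 ± 0.17, -2.88 ± 0.17 and -4.02 ± 0.20 in Clone A and -2.77 ± 0.17, -2.57 ± 0.17 and -3.56 ± 0.19 in Clone B (largest adjusted p = 4.29e-12). TIFM lowered ITGB4 in Clone A (-1.42 ± 0.22, adjusted p = 2.5e-06) and Clone B (-1.27 ± 0.20, adjusted p = 6.22e-06). In the parental line the TIFM difference was -0.28 ± 0.16 (adjusted p = 0.153), and the responses of the clones differed from it (-1.14 ± 0.27, adjusted p = 0.0015, and -0.99 ± 0.25, adjusted p = 0.0117). The parental fall in hypoxia (-0.41 ± 0.15, adjusted p = 0.0456) was lost without each of the 6 libraries (adjusted p up to 0.193) and with the replicate number as a block.

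ITGA6, the partner of ITGB4 and also of ITGB1, was lower in Clone B in all 3 conditions and in Clone A in TIFM. It stood at 230, 224 and 236 CPM in parental normoxia, 214, 228 and 216 in Clone A and 146, 140 and 147 in Clone B. The Clone A libraries overlapped the parental ones (-0.07 ± 0.14, adjusted p = 0.769) and the Clone B libraries lay below both (-0.67 ± 0.14 against the parental line, adjusted p = 0.00077). In hypoxia Clone B held 96.0, 111 and 106 CPM, and differed from the parental line by -0.94 ± 0.14 (adjusted p = 1.08e-05). In TIFM both clones were lower, by -0.63 ± 0.14 each. Its fall with hypoxia in Clone B (-0.47 ± 0.14, adjusted p = 0.0414) was lost without each of the 6 libraries (adjusted p up to 0.136). ITGA3, which pairs with ITGB1 to bind LAMA3 and LAMA5 laminins, rose in TIFM in the parental line from 589, 558 and 646 to 1118, 1368 and 1030 CPM (0.97 ± 0.14, adjusted p = 4.34e-06). It also rose in TIFM in Clone A (0.50 ± 0.14, adjusted p = 0.00267), where replicate 1 at 606 CPM lay within the hypoxic range, and in Clone B (0.38 ± 0.14, adjusted p = 0.0222, and up to 0.0647 without hypoxia replicate 2 or 3 or TIFM replicate 2). In TIFM ITGA3 was lower in both clones than in the parental line (-0.49 ± 0.14 and -0.45 ± 0.14), and the Clone B call was lost without parental TIFM replicate 2 (adjusted p = 0.0768). Neither clone passed the threshold in normoxia or hypoxia.

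ITGA7, a laminin receptor subunit best known from muscle (chr12:55684568-55716043, minus strand), was low but higher in parental hypoxia. Parental libraries held 2.54, 2.5 and 2.84 CPM in normoxia, 4.50, 5.18 and 4.58 in hypoxia and 1.23, 1.49 and 2.30 in TIFM. Clone A held 1.30, 1.44 and 1.47 CPM in normoxia and 1.45, 1.01 and 1.19 in hypoxia. Clone B held 1.35, 1.94 and 1.58 CPM in normoxia and 1.56, 0.952 and 1.66 in hypoxia. The parental line rose by 0.85 ± 0.25 in hypoxia (adjusted p = 0.00996), and the clones' normoxic and hypoxic libraries overlapped. The difference between the responses did not pass the threshold (-1.06 ± 0.37, adjusted p = 0.0905, in Clone A and -1.08 ± 0.36, adjusted p = 0.0949, in Clone B). In hypoxia ITGA7 was lower in Clone A by -1.96 ± 0.26 and in Clone B by -1.77 ± 0.26, while the Clone B call in normoxia (-0.69 ± 0.26, adjusted p = 0.049) was lost without 5 of the 6 libraries (adjusted p up to 0.186). Muscle markers summed to at most 2.27 CPM in any library.

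ITGB1 (chr10:32900319-33005792, minus strand) was the most abundant member and varied little outside TIFM. Across normoxia and hypoxia its 18 libraries ranged from 1708 to 2145 CPM, and no comparison of lines or of hypoxia passed the threshold. In TIFM it stood at 2620, 1911 and 2800 CPM in the parental line, 2766, 1717 and 1632 in Clone A and 3504, 3542 and 3401 in Clone B. Clone B rose in TIFM by 0.80 ± 0.14 (adjusted p = 3.85e-05). The parental call (0.37 ± 0.14, adjusted p = 0.0382) had overlapping groups and was lost without 5 of the 6 libraries (adjusted p up to 0.193). In Clone A the difference was 0.00 ± 0.14 (adjusted p = 0.999) and the TIFM libraries of Clone A lay far apart.

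**Figure D4:**
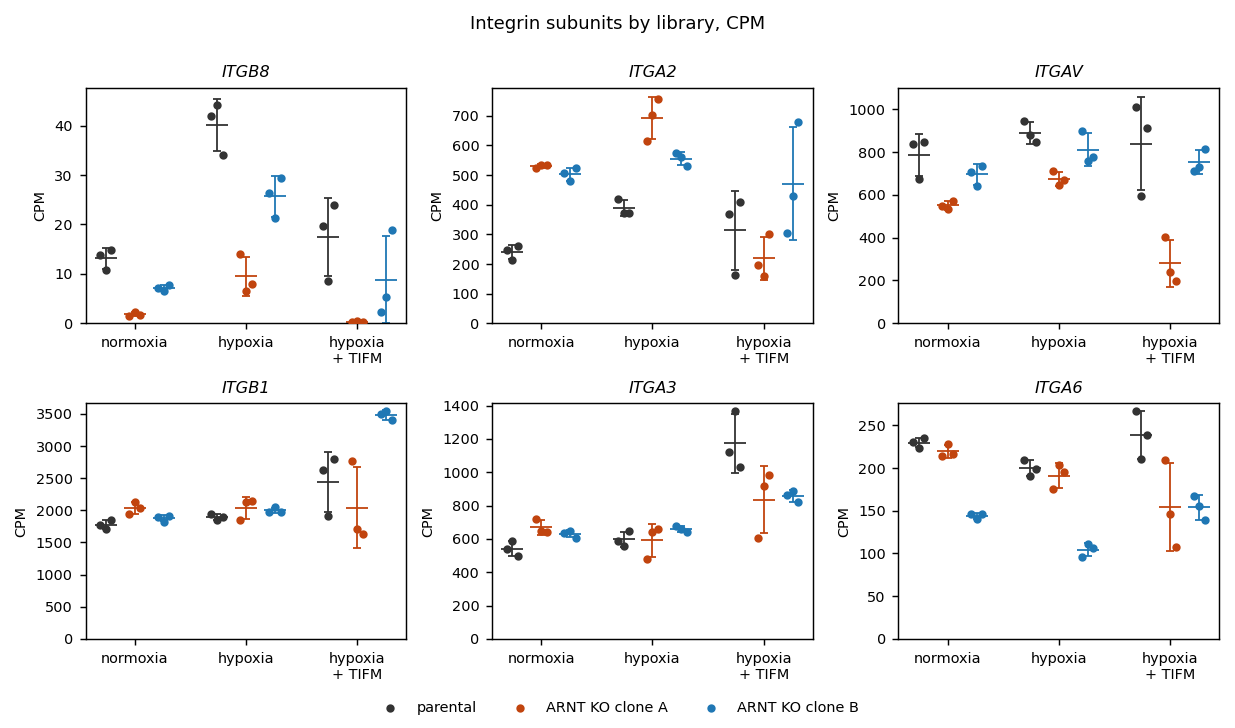
Level (TMM-scaled CPM, linear axes from 0) of ITGB8, ITGA2, ITGAV, ITGB1, ITGA3 and ITGA6 by library in the 9 groups; points are libraries, and horizontal lines with whiskers give the group mean ± SD (n = 3). ITGA2 lies above the parental line in both clones in normoxia, ITGA3 is highest in parental TIFM, and ITGAV and ITGB8 are lowest in Clone A in TIFM. The ITGA2 libraries of Clone A in TIFM overlap those of the parental line in normoxia and in TIFM.

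The collagen-binding subunits ITGA1 and ITGA2 were higher in both clones in normoxia. Their genes are neighbours on chromosome 5 (ITGA1 at chr5:52787896-52959210, plus strand), so they may not be separate observations. Of 5 tested genes within 1 Mb of ITGA2, ITGA1 among them, 2 were higher and 1 lower in Clone A in normoxia. In Clone B 3 were higher and none lower. Of all tested genes 31.6% and 26.5% differed. Copy number was not measured, and its part in these differences was not tested. ITGA2 (chr5:52989326-53094779, plus strand) was at 246, 214 and 262 CPM in parental normoxia, 523, 534 and 535 in Clone A and 507, 480 and 523 in Clone B. Each clone was above the parental line with no overlap (1.14 ± 0.25, adjusted p = 0.000952, and 1.06 ± 0.25, adjusted p = 0.00206), and the clones did not differ from each other at the threshold (-0.08 ± 0.25, adjusted p = 0.871). In hypoxia ITGA2 was higher in Clone A (0.84 ± 0.25, adjusted p = 0.00918), while the difference for Clone B did not pass the threshold (0.52 ± 0.25, adjusted p = 0.112). In TIFM neither clone differed from the parental line at the threshold and both overlapped it, with a difference of -0.52 ± 0.25 for Clone A (adjusted p = 0.0763) and 0.59 ± 0.25 for Clone B (adjusted p = 0.0557). The rise of ITGA2 with hypoxia in the parental line (0.69 ± 0.25, adjusted p = 0.039) was lost without each of the 6 libraries (adjusted p up to 0.13). In TIFM ITGA2 fell in Clone A to 197, 160 and 301 CPM from 616, 704 and 758 (-1.66 ± 0.26, adjusted p = 3.2e-06). This differed from the parental response (-1.35 ± 0.35, adjusted p = 0.00381), where TIFM libraries held 370, 162 and 409 CPM. ITGA1 was at 6.04, 4.55 and 5.34 CPM in parental normoxia, 11.1, 13 and 13.1 in Clone A and 8.68, 8.67 and 8.72 in Clone B. It was higher in both clones in all 3 conditions (1.22 ± 0.19, 1.57 ± 0.19 and 0.65 ± 0.20 in Clone A, and 0.71 ± 0.19, 1.40 ± 0.19 and 1.36 ± 0.20 in Clone B). The Clone A libraries overlapped the parental ones in TIFM, and that call was lost without Clone A TIFM replicate 1 (adjusted p = 0.207). ITGA10 was higher in both clones in hypoxia (1.41 ± 0.38 in Clone A, and 1.15 ± 0.38 in Clone B, with adjusted p up to 0.0752 without Clone B or parental replicate 3). Of 18 tested genes within 1 Mb of ITGA10, 8 were higher in Clone A in hypoxia and 7 in Clone B, and none was lower. Of all tested genes 41.4% and 35.9% differed there. ITGA11 stayed between 0.453 and 2.21 CPM and no difference from the parental line passed the threshold in either clone.

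ITGAV pairs with several beta subunits to bind fibronectin, vitronectin and latent TGF-beta (chr2:186590065-186680901, plus strand). It was at 839, 673 and 848 CPM in parental normoxia, 549, 533 and 571 in Clone A and 706, 643 and 737 in Clone B. The Clone A call in normoxia (-0.51 ± 0.18, adjusted p = 0.031) was lost without 5 of the 6 libraries (adjusted p up to 0.104). In TIFM ITGAV dropped in Clone A to 404, 240 and 198 CPM from 711, 644 and 669 (-1.26 ± 0.18, adjusted p = 1.25e-06). Clone B in TIFM held 711, 730 and 816 CPM and the parental line 1011, 595 and 911, so that Clone A lay below both others without overlap. The Clone A response differed from the parental one by -1.18 ± 0.26 (adjusted p = 0.000767), and the Clone B response did not pass the threshold (-0.02 ± 0.25, adjusted p = 0.969). ITGA5, the fibronectin receptor subunit, fell in TIFM in Clone B (-0.72 ± 0.14, adjusted p = 0.000115) and was lower in TIFM in both clones than in the parental line (-0.73 ± 0.14 and -0.65 ± 0.14). ITGA2B, a platelet subunit, stayed at or below 1.63 CPM, and rose with hypoxia in the parental line from 0.309 to 0.494 CPM up to 1.23 to 1.63 (1.73 ± 0.41, adjusted p = 0.00219).

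ITGB8 (chr7:20330702-20415754, plus strand), a partner of ITGAV that activates latent TGF-beta, was the one member called higher in hypoxia in all 3 lines. Parental libraries held 13.8, 10.8 and 14.8 CPM in normoxia, 42, 44.1 and 34.1 in hypoxia and 19.7, 8.65 and 23.9 in TIFM. Clone A held 1.5, 2.28 and 1.75 CPM, then 14.0, 6.62 and 8.01, then 0.234, 0.458 and 0.346. Clone B held 7.21, 6.59 and 7.65 CPM, then 26.3, 21.3 and 29.5, then 2.32, 5.40 and 18.8. In each line every hypoxic library exceeded every normoxic one, and the TIFM libraries were spread widely in the parental line and Clone B. The rise in hypoxia was 1.61 ± 0.42 in the parental line (adjusted p = 0.00474), 2.37 ± 0.48 for Clone A (adjusted p = 0.00114) and 1.85 ± 0.43 for Clone B (adjusted p = 0.00774). The responses of the clones exceeded the parental one by 0.77 ± 0.63 (adjusted p = 0.569) and 0.24 ± 0.58 (adjusted p = 0.911), which does not show that the responses were alike. ITGB8 was lower in Clone A than in the parental line by -2.83 ± 0.48 in normoxia (adjusted p = 4.68e-05), -2.07 ± 0.43 in hypoxia and -5.67 ± 0.63 in TIFM. In Clone B the differences of -0.88 ± 0.43 (adjusted p = 0.14), -0.64 ± 0.41 (0.233) and -0.99 ± 0.43 (0.0579) did not pass the threshold.

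TIFM lowered ITGB8 in all 3 lines relative to hypoxia in regular medium. The fall was -1.20 ± 0.41 in the parental line (adjusted p = 0.0212), and this call was lost without parental hypoxia replicate 1 or 2 or parental TIFM replicate 2 (adjusted p up to 0.115). It was -4.80 ± 0.65 in Clone A (adjusted p = 3.95e-07), and limma-voom did not call it (adjusted p = 0.102). In Clone B it was -1.55 ± 0.43 (adjusted p = 0.00344) and -2.74 without Clone B TIFM replicate 3, the library at 18.8 CPM. With only the compared libraries in the fit the Clone B value had an adjusted p of 0.0926.

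**Figure D5:**
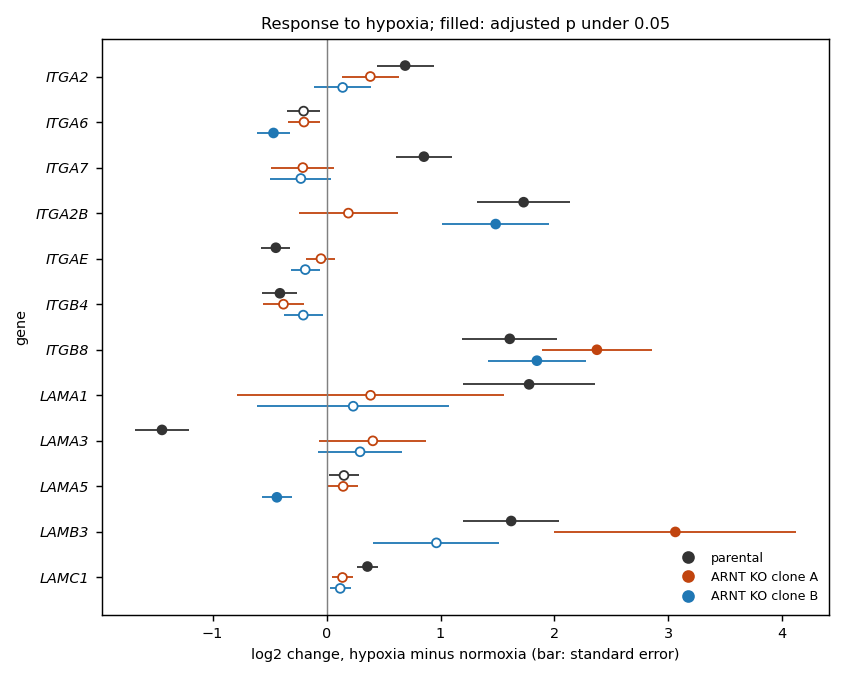
Log2 difference between hypoxia and normoxia in regular medium (points, with bars of 1 standard error; filled where adjusted p was below 0.05) of members called in at least 1 line, in the parental line, Clone A and Clone B; the line at 0 marks no difference. ITGB8 lies above 0 in all 3 lines (1.61, 2.37 and 1.85), and LAMA3 lies at -1.44 in the parental line and at 0.41 and 0.29 in the clones. LAMA3 was below 1 CPM in every clone library.

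ITGB5, a partner of ITGAV at 281 to 359 CPM in parental normoxia, was higher in Clone B in normoxia (0.42 ± 0.12, adjusted p = 0.0118) and fell there in TIFM (-0.39 ± 0.12, adjusted p = 0.0101). The first call was lost without Clone B replicate 2 or parental replicate 3 (adjusted p up to 0.09), and the second without Clone B TIFM replicate 1 (adjusted p = 0.0743). ITGA9 rose above the parental level in Clone B in normoxia (1.77 ± 0.47, adjusted p = 0.00552), at 2.00, 2.11 and 2.84 CPM against 0.774, 0.759 and 0.494. ITGB2, the common beta subunit of leukocytes, was counted at 1.91 to 7.24 CPM per library. It was higher in Clone B in hypoxia (0.83 ± 0.18, adjusted p = 0.000566) and fell with TIFM in both clones (-0.97 ± 0.19 in Clone A, and -0.56 ± 0.18 in Clone B, lost without Clone B TIFM replicate 1, adjusted p = 0.0593). ITGAE, which pairs with ITGB7 to bind E-cadherin, fell with hypoxia in the parental line (-0.45 ± 0.13, adjusted p = 0.0104). It was at 13.8 to 15.5 CPM in parental hypoxia against 22.8 to 24.5 in Clone A (0.71 ± 0.13, adjusted p = 7.61e-05). ITGAM was at or below 1.60 CPM and fell with TIFM in all 3 lines (-1.60 ± 0.48, -2.27 ± 0.62 and -2.62 ± 0.53). ITGB6, ITGA8, ITGA4 and ITGB7 did not exceed 0.641 CPM in any library. ITGB6 had 0 counts in Clone A in TIFM against 10 in Clone A in hypoxia, which makes it at least 2.57-fold lower (against 3 counts over the group).

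The design also asks whether a response to hypoxia or TIFM differed between a clone and the parental line. For hypoxia 1 of 33 tested members differed in each clone, where 6.23% of all tested genes differed in Clone A and 4.73% in Clone B. The gene was LAMA3 in both, and its response was higher by 1.85 ± 0.53 for Clone A (adjusted p = 0.0337) and by 1.74 ± 0.44 for Clone B (adjusted p = 0.0187). These calls were lost without 6 and 4 of the 12 libraries (adjusted p up to 0.196 and 0.105). LAMA3 was below 1 CPM in every clone library, a level at which a fall like the parental one could hardly be seen. For TIFM 11 members differed in Clone A (9 lower), where 38.9% of all genes did, and 5 in Clone B (all lower), where 10.4% did. ITGB4 and LAMA5 were among them in both clones. The difference in Clone A was -3.60 ± 0.80 for ITGB8 (adjusted p = 0.000944) and in Clone B -3.08 ± 0.59 for LAMA2 (adjusted p = 0.00156) and -3.81 ± 0.84 for LAMB3 (adjusted p = 0.00478).

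The proteins that work with integrins and laminins were examined in 4 lists, and the genes named from them were picked for large changes. Of the 38 tested genes of the cytoplasmic adhesion machinery (talins, kindlins, parvins and the like), hypoxia raised 12 and lowered 6 in the parental line, raised 3 and lowered 7 in Clone A, and raised 3 and lowered 2 in Clone B. Of all tested genes hypoxia changed 30.2%, 22.2% and 9.30% in the same order of lines. The median of this list in parental hypoxia was 0.09, against -0.00 over all tested genes. TLN2, a talin that activates integrins, fell with hypoxia in all 3 lines (-0.61 ± 0.13, -0.78 ± 0.13 and -0.64 ± 0.12). FERMT1, the kindlin of epithelia, fell as well (-1.04 ± 0.25, -0.91 ± 0.22 and -1.27 ± 0.21), and was higher in both clones in normoxia (1.69 ± 0.23 and 2.72 ± 0.23). CAV1, the caveolin of membrane invaginations, rose with hypoxia in all 3 lines (0.92 ± 0.09, 0.50 ± 0.09 and 0.58 ± 0.09). LIMS2, an adaptor of integrin-linked kinase, was lower in Clone A (-2.93 ± 0.32) and Clone B (-1.51 ± 0.28) in normoxia. PARVA, the alpha-parvin, rose with TIFM in all 3 lines (1.12 ± 0.09, 1.13 ± 0.09 and 0.64 ± 0.08), and ACTN4, an actin crosslinker, fell (-0.78 ± 0.17, -1.66 ± 0.18 and -1.46 ± 0.17).

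Of 36 tested genes of the basement membrane and hemidesmosome, 8 were lower and 4 higher in Clone A in normoxia, and 9 were lower and 7 higher in Clone B. In TIFM 21 were lower and 7 higher in Clone A, and 17 were lower and 5 higher in Clone B. Of all tested genes 31.6% differed in normoxia for Clone A (15.8% lower) and 26.5% for Clone B (13.3% lower), and in TIFM 61.7% (30.7% lower) and 47.5% (25.4% lower). The list's medians in normoxia were -0.07 in Clone A and -0.01 in Clone B, against 0.04 and 0.01 over all tested genes, and -0.61 and -0.24 in TIFM, against -0.01 in both. NTN4, a netrin that binds laminin networks, was lower in Clone A (-3.47 ± 0.21) and Clone B (-1.99 ± 0.19) in normoxia. SPARC, a collagen-binding matrix protein, was lower in both as well (-3.46 ± 0.20 and -3.33 ± 0.20). COL7A1, the collagen of anchoring fibrils, rose with hypoxia in all 3 lines (1.15 ± 0.12, 0.70 ± 0.12 and 0.54 ± 0.12). PLEC, a cytolinker of hemidesmosomes, fell with hypoxia in Clone A (-0.43 ± 0.12) and Clone B (-0.65 ± 0.12). HSPG2, the proteoglycan perlecan, fell with TIFM in the parental line (-1.10 ± 0.14) and in Clone A (-2.98 ± 0.15).

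Of 39 tested integrin ligands other than laminins, 12 were lower and 5 higher in Clone A in normoxia, and 10 were lower and 11 higher in Clone B. Over all tested genes the shares were 31.6% for Clone A (15.8% lower) and 26.5% for Clone B (13.3% lower). The list's medians were -0.13 and 0.23, against 0.04 and 0.01 over all tested genes. CDH1 (E-cadherin, the ligand of the ITGAE and ITGB7 pair) was lower in both clones in normoxia (-5.21 ± 0.17 and -5.57 ± 0.18). EDIL3, a secreted ligand of ITGAV, was lower in Clone A (-5.36 ± 0.16) and higher in Clone B than in Clone A (4.64 ± 0.16). COL1A1, a fibrillar collagen bound by ITGA1 and ITGA2, was higher in Clone A (1.77 ± 0.20) and in Clone B (4.45 ± 0.23), as was LTBP1, which holds latent TGF-beta in the matrix (2.08 ± 0.12 and 2.90 ± 0.12). Of 10 tested genes of laminin cleavage and matrix turnover, 2 were lower in each clone in normoxia, with 2 higher in Clone A and 1 in Clone B. These counts are near the 31.6% and 26.5% of all tested genes that differed. MMP2, a gelatinase, was one of those lower in both (-3.39 ± 0.13 and -1.16 ± 0.12). MMP14, its membrane-bound activator, rose with TIFM in the parental line (0.57 ± 0.12) and was lower in TIFM in both clones (-1.17 ± 0.12 and -1.63 ± 0.12).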

How the data were processed

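Polyadenylated RNA of 27 libraries (9 groups of 3) was sequenced. The deposited table holds raw counts of reads per gene; per the submitters' processing notes the authors used HISAT2, featureCounts and the GRCh38 build, with versions and strand setting not given in the sources used here. Gene symbols were matched for 21479 of 21487 identifiers. GENCODE release 29 gave coordinates and exon lengths (all exons of a gene merged) for 21409 identifiers.

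From the counts, genes were kept with edgeR's filterByExpr (minimum count 10, minimum total 15; 13943 genes kept, 3417 had no count), scaled by TMM and tested with edgeR's quasi-likelihood F test (edgeR 4.0.16, limma 3.58.1, R 4.3.3; robust, 1 coefficient per group, all 27 libraries in one fit), with Benjamini-Hochberg adjustment over all tested genes and a threshold of 0.05. CPM values are TMM-scaled, and ratios with 1 to 3 counts in a group have exact binomial 95% intervals, which cover counting error only. The scripts were tested on simulated data. Every member could be named, but 1 member is counted and not reported here. Values by library are given for members called with a log2 size of 1 or more and a group mean of 1 CPM or more, and for the main subunits. Partner genes were named from called genes with a group mean of 5 CPM or more. Per list and comparison only the up to 3 largest rises and up to 3 largest falls could be named. The members and lists were chosen with earlier results of these data known. Alternatives were RLE scaling, no filter, a replicate block, DESeq2 1.42.0, limma-voom with quality weights, fits of only the compared libraries, and leaving out each library.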

Additional observations from a re-analysis of the deposited data

Results flagged for a closer look

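These results are listed because the response of a clone to hypoxia or to TIFM differed from that of the parental line by the test of the difference itself (edgeR's quasi-likelihood test, adjusted p below 0.05 over all tested genes). Values are log2 differences between responses, clone minus parental.

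For hypoxia LAMA3 was listed in both clones, at 1.85 in Clone A and 1.74 in Clone B. It was below 1 CPM in every clone library, which leaves little room for a fall. For TIFM in Clone A, the laminin chains LAMA5 (-1.49) and LAMB1 (-0.76) had lower responses than in the parental line, and LAMB2 (0.57) and LAMA1 (2.67) had higher ones. LAMA1 had at most 0.675 CPM in any library, and its call was lost without 7 of the 12 libraries. Among integrin subunits the Clone A response to TIFM was lower for ITGB8 (-3.60), ITGA2 (-1.35), ITGAV (-1.18), ITGB2 (-1.17), ITGB4 (-1.14), ITGA1 (-0.91) and ITGA6 (-0.57). The ITGA6 call was lost without 7 of the 12 libraries, that of LAMB2 without 3 (adjusted p up to 0.119), and that of ITGA1 without parental TIFM replicate 1 (adjusted p = 0.11). The spread between replicates was largest in Clone A in TIFM, and its part in these results was not tested.

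For TIFM in Clone B the response was lower for LAMB3 (-3.81), LAMA2 (-3.08), ITGB4 (-0.99), ITGA5 (-0.73) and LAMA5 (-0.67). LAMB3 had 3 counts in all in Clone B in TIFM. The ITGA5 call was lost without Clone B hypoxia replicate 1 (adjusted p = 0.0671).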

How the results depend on the processing

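Of 221 member calls over the 19 comparisons, 217 were kept with RLE scaling, 205 without the filter, 219 with DESeq2, 187 with limma-voom and 187 of 211 with only the compared libraries, and 157 were kept without any single library. No call changed direction under any of these. Calls for LAMA3, ITGB4, LAMA4, LAMA5 and LAMB1 against the parental line were kept in all of them. Members called moved by more than 1.5 times as follows. Hypoxia in Clone A went from 2 to 5 with limma-voom and 4 with only the compared libraries, and in Clone B from 4 to 1 without the filter, 12 with limma-voom and 12 with only the compared libraries. TIFM in the parental line went from 7 to 12 with limma-voom, and in Clone A from 19 to 8 with limma-voom and 11 with only the compared libraries. Clone B against Clone A went from 10 to 16 in normoxia with limma-voom, and from 16 to 9 in TIFM with limma-voom and 9 with only the compared libraries. The difference in hypoxia response went from 1 to 2 with DESeq2, 6 with limma-voom and 5 with only the compared libraries in Clone A, and from 1 to 2, 6 and 8 in Clone B. The difference in TIFM response went from 11 to 5 with limma-voom and 7 with only the compared libraries in Clone A, and from 5 to 8 with DESeq2 and 9 with only the compared libraries in Clone B. The cause was not tested.

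Leaving out each library in turn gave 8 to 9, 1 to 2 and 1 to 2 members called for hypoxia in the parental line, Clone A and Clone B, and 4 to 7, 16 to 20 and 14 to 18 for TIFM. It gave 13 to 16, 17 to 19 and 20 to 23 for Clone A against the parental line in normoxia, hypoxia and TIFM, 10 to 12, 15 to 16 and 17 to 18 for Clone B, and 5 to 10, 8 to 10 and 14 to 19 between the clones. For differences in response it gave 0 to 1 in both clones for hypoxia, and 8 to 12 and 4 to 8 for TIFM.

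The replicate numbers are not stated to pair the samples. Each library's deviations from its group mean of log CPM were correlated with those of libraries of other groups. Correlations of same-numbered libraries ranged from -0.190 to 0.450 (median -0.005), and 17 of 108 pairs were over 0.1. Those of differently numbered libraries ranged from -0.488 to 0.281 (median 0.003), and 19 of 216 pairs were over 0.1. Of the 27 libraries 12 correlated best with their own number. These values do not settle whether the numbers pair the samples. With the replicate block 220 of 221 member calls were kept. With 3 libraries a group, genes below 1 CPM rest on few counts, and small differences in them were not detectable at this depth.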
